A study of Saccharomyces cerevisiae with 24 samples.

Results

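The numbered autophagy genes of budding yeast are described here in cells that carried a substitution at leucine 126 of histone H3, a residue of the nucleosome that the study tested for its part in the reduction of copper by chromatin. Members were the rows of the deposited count table whose standard name is ATG followed by a number only, which gave 33 of 6692 open reading frames. RNA came from whole cells of 3 strains, H3L126M (methionine), H3L126H (histidine) and WT, grown in each of 2 media, YPEG and YPD, with 4 libraries from replicate experiments for each strain and medium and 24 in all. YPEG is the oxidative medium, in which ethanol and glycerol are the carbon sources, and YPD is the fermentative medium with glucose. All strains descend from OCY1131, a derivative of BY4741 (S288C background, MATa), and share the alleles his3Δ1, leu2Δ0, met15Δ0, ura3Δ0 and a restored HHT2. Each mutant carries its substitution in both chromosomal H3 genes, HHT1 and HHT2, placed there with CRISPR-Cas9, and cells were collected after a few doublings. The study lists a single strain for each mutant, and the labels do not mention clones. The 4 libraries of a mutant in a medium stand for that strain. Effects of the substitution cannot be told apart from other differences the strain may carry.

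Autophagy encloses part of the cytoplasm in a double membrane, the autophagosome, and delivers it to the vacuole, where hydrolases break it down and permeases return the building blocks. The Atg1 kinase complex starts the process when nutrients run low, vesicles with Atg9 supply membrane, a PI 3-kinase complex marks the site, and ubiquitin-like conjugation systems attach Atg8 to the lipid of the growing membrane. Selective forms use receptors that bind a cargo and Atg8 or Atg11, and yeast also runs a constitutive route, the cytoplasm-to-vacuole targeting (Cvt) pathway, with much of the same machinery. In yeast the mRNA of several ATG genes is known to be held low in rich glucose medium by repressors and to rise on starvation.

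The 300 bases before the start codon of 4 members are printed. *ATG8* is the gene with the largest difference between H3L126H and WT in YPEG. *ATG39*, *ATG34* and *ATG19* are receptor genes that were higher in YPEG than in YPD. The receptor genes *ATG32*, *ATG36* and *ATG40* changed more with the medium than *ATG19* and are not printed. The sequences are from the RefSeq R64 assembly, 5′ to 3′ on the coding strand of the gene, chrII:80732-81031 (minus strand) for *ATG8*, chrXII:758834-759133 (minus strand) for *ATG39*, chrXV:165414-165713 (plus strand) for *ATG34* and chrXV:168427-168726 (plus strand) for *ATG19*. Capitals mark matches on either strand to AGGGG, the stress response element, to GCCGCC, the core of the URS1 site of Ume6, to TGACTC, the Gcn4 site, and to GATAAG, a site of GATA factors.
ATG8: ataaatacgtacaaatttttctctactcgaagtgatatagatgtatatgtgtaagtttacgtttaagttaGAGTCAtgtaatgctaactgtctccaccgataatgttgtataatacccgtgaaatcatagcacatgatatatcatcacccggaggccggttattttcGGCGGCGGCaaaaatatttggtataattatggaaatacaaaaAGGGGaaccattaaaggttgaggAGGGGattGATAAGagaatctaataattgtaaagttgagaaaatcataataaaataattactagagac
ATG39: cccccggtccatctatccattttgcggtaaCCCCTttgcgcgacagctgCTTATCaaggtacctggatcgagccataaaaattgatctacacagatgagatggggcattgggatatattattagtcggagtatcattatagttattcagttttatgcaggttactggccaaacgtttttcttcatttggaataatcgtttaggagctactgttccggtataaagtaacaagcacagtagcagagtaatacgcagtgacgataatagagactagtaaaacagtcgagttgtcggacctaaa
ATG34: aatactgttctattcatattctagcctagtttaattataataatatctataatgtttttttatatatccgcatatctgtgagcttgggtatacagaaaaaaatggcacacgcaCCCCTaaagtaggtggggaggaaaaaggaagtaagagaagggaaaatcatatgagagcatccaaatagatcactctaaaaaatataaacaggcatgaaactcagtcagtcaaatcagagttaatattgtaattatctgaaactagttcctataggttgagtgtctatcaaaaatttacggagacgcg
ATG19: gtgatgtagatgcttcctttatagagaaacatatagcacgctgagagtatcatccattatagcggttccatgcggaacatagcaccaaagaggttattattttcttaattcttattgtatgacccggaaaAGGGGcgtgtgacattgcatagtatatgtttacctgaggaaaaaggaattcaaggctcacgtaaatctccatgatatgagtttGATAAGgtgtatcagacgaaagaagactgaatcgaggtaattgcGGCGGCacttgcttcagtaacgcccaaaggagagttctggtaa

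The window of *ATG8* held all 4 motifs. In it, 2 matches to GCCGCC on the opposite strand overlap each other, at positions -133 and -130 from the start codon. Among the members, 10 of 33 windows held AGGGG (30.3%, against 22.2% of 6001 windows of all genes), 2 held GCCGCC (6.06%, against 5.20%), 4 held TGACTC (12.1%, against 7.77%) and 12 held GATAAG (36.4%, against 14.7%). Both windows with GCCGCC are printed above, those of *ATG8* and *ATG19*. These matches are a description of the letters and say nothing about binding.

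Assigned counts per library were between 8.57e6 and 15.6e6. The medium markers followed the labels: *ADH2*, the glucose-repressed alcohol dehydrogenase, was at 1365 to 3961 CPM (counts scaled to library size) in the YPEG libraries, against 21.8 to 49.5 CPM in the YPD libraries. *MET17* and *URA3*, deleted in this background, had 0 counts in every library. The MATa receptor gene *STE2* was at 49.5 CPM or more in every library. Transcripts of MATα-specific genes, which MATa cells carry but do not activate, were not at 0 throughout. *SAG1* was at 22.0 to 53.2 CPM, *STE3* at 3.60 to 19.5 CPM and *MF(ALPHA)1* at 0 to 23.6 CPM. The ranges of *STE2* (376 to 824 CPM) and *SAG1* (22.0 to 51.6 CPM) were apart in YPD. They overlapped in YPEG, at 49.5 to 164 CPM and 25.2 to 53.2 CPM, so the mating-type markers do not separate cleanly there. The substitution itself cannot be read from counts. CPM values below are scaled with the TMM factors of all 24 libraries, and values per kb are divided by the coding length.

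In WT, replicates 1 and 2 stood apart from replicates 3 and 4 over the whole transcriptome. In YPD, 69.3% of 5976 genes had both libraries of one pair above both of the other, against 16.1% and 14.5% for the other ways of pairing the 4 libraries. Among the 32 members tested, 25 were apart in this way, with replicates 1 and 2 higher for 23 and lower for *ATG11* and *ATG32*. In YPEG, the same pairs were apart for 59.8% of 6022 genes and for 15 members, with replicates 1 and 2 higher for 4 and lower for 11. The same pairs of H3L126M libraries were apart for 51.3% of genes in YPEG, against 28.6% and 20.1% for the other pairings. These shares were 48.1%, against 25.5% and 26.4%, in YPD. Members apart in H3L126M were 17 in YPEG, with replicates 1 and 2 higher for 13, and 14 in YPD, with them lower for 10. The labels give no batch, and results against WT are therefore given with all 4 WT libraries and, where it changes the picture, against each WT pair. No pair of H3L126M libraries was left out of a fit.

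*ATG16*, whose protein joins Atg12-Atg5 into the complex that lipidates Atg8, had 0 to 4 counts per library, 25 in all, and was at 0 in 11 of 24 libraries. It was the 1 member that did not pass the filter on low counts in any comparison, so 32 members were tested. Whether this reflects the transcript or the counting was not tested. *ATG29* overlaps the reading frame of YPL165C on the opposite strand by 24 bases. The alignment is stated to be strand-specific, but strand use in counting is not given, so reads in this overlap may belong to either gene.

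Levels per kb differed widely among the members in WT (see the plot of CPM per kb in WT). In YPEG, *ATG8* was highest with 143 ± 32.3 CPM per kb (SD, n = 4), followed by *ATG27*, which encodes a membrane protein that travels with Atg9, with 115 ± 8.16, and *ATG33*, which encodes a mitochondrial outer membrane protein of mitophagy, with 101 ± 12.5. The means of *ATG8* and *ATG27* differed by less than the SD of *ATG8*, and those of *ATG27* and *ATG33* by about the SD of *ATG33*. In YPD, *ATG27* was highest with 158 ± 10.7 CPM per kb and *ATG8* followed with 94.5 ± 43.5. The lowest of the members tested were *ATG14*, which encodes the subunit that sends the PI 3-kinase complex to autophagosome formation, in YPEG with 10.3 ± 1.06 CPM per kb, and *ATG39* in YPD with 2.14 ± 0.81.

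**Figure D1:**
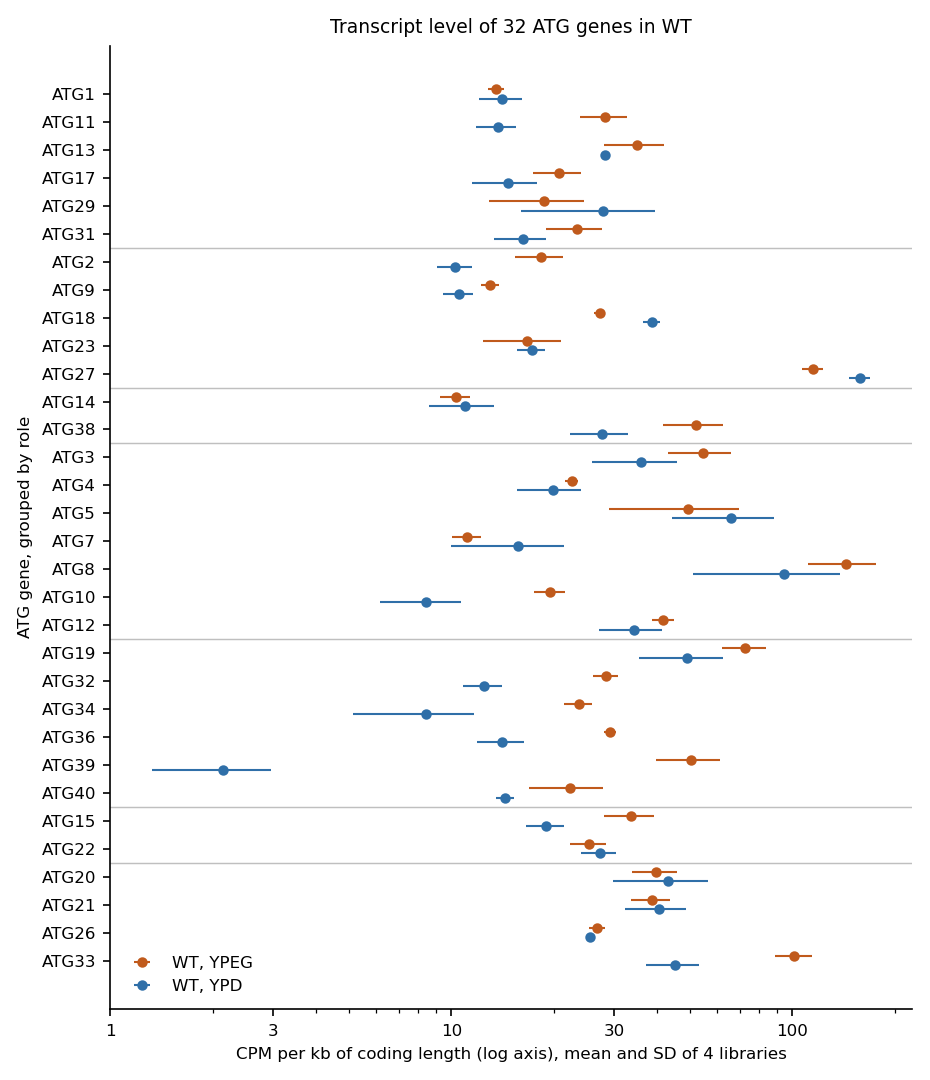
Transcript level of 32 ATG genes in WT cells in CPM per kb of coding length (log axis), as the mean of 4 libraries with the SD, YPEG in orange above YPD in blue, grouped by role with lines between roles (from top: Atg1 complex, Atg9 vesicles, PI 3-kinase, conjugation, receptors, vacuole, other). *ATG39* stands farthest from the rest in YPD, at 2.14 CPM per kb, and reaches 50.6 in YPEG.

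The comparison of media in WT asks how the autophagy genes respond to respiratory growth. Of 32 members, 23 passed the threshold, 19 higher and 4 lower in YPEG than in YPD, while 67.4% of all 6082 genes passed it, 34.3% higher and 33.2% lower. The median log2 fold change (log2FC) was 0.40 over the members and 0.02 over all genes. All 4 YPEG libraries lay above all 4 YPD libraries for 12 members and below them for 2, against 27.6% and 27.0% of all genes.

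Receptor genes were higher in YPEG without exception, 6 of 6, with a median log2FC of 1.12. *ATG39*, which encodes the receptor for the nuclear envelope and perinuclear ER, had 52.0, 49.8, 62.2 and 78.4 CPM in the 4 YPEG libraries, against 3.01, 2.22, 3.64 and 1.39 CPM in the 4 YPD libraries. The groups were far apart, and the log2FC of 4.56 (SE 0.22, edgeR adjusted p = 9.03e-15) corresponds to 23.6-fold. *ATG34*, the gene of a receptor for the Cvt cargo alpha-mannosidase during starvation, had 33.5, 28.1, 28.0 and 27.5 CPM in YPEG, against 13.86, 13.95, 6.98 and 6.83 CPM in YPD. Every YPEG library was above every YPD library, with a log2FC of 1.495 (SE 0.19, adjusted p = 1.88e-07). *ATG32*, the gene of the mitophagy receptor, had 50.9, 42.3, 43.8 and 44.3 CPM in YPEG, against 16.8, 19.5, 23.2 and 19.8 CPM in YPD, again without overlap (log2FC 1.19, SE 0.10, adjusted p = 4.43e-10).

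The other receptor genes followed in the same direction. *ATG36*, for the receptor of peroxisomes, had a log2FC of 1.05 (SE 0.12, adjusted p = 3.70e-08) with all YPEG libraries above all YPD libraries. *ATG40*, for the receptor of the ER, had 0.63 (SE 0.17, adjusted p = 0.0023), and *ATG19*, for the receptor of the Cvt cargo aminopeptidase I, had 0.57 (SE 0.13, adjusted p = 0.000439). The YPEG and YPD libraries of these last 2 genes overlapped.

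In the Atg1 complex and its scaffolds, 4 of 6 genes rose and 1 fell. *ATG11*, for the scaffold that selective receptors bind, had 87.1, 88.4, 120.1 and 104 CPM in YPEG, against 39.3, 48.0, 52.5 and 53.6 CPM in YPD. The YPEG libraries were all higher, at a log2FC of 1.05 (SE 0.10, adjusted p = 1.33e-09). *ATG31* and *ATG17*, whose products build the scaffold of starvation-induced autophagy, had 0.53 and 0.49 (adjusted p = 0.0138 and 0.00553), and *ATG13*, for the regulatory subunit of the kinase, had 0.31 (adjusted p = 0.01). *ATG29*, for the third part of that scaffold, was lower (log2FC -0.58, SE 0.24, adjusted p = 0.0395). *ATG1*, for the kinase itself, had 34.7, 35.0, 38.9 and 36.9 CPM in YPEG, against 43.2, 41.0, 36.6 and 30.8 CPM in YPD, which overlapped and did not pass the test (log2FC -0.06, SE 0.12, adjusted p = 0.691).

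Among the conjugation genes, 4 of 7 tested rose and 1 fell. *ATG10*, for the enzyme that joins Atg12 to Atg5, had the largest change of this group, 10.3, 9.86, 8.43 and 10.7 CPM in YPEG, against 5.04, 5.26, 3.92 and 2.77 CPM in YPD (log2FC 1.21, SE 0.21, adjusted p = 2.29e-05), without overlap. *ATG8*, for the ubiquitin-like protein of the membrane, had 54.1, 39.7, 44.0 and 65.3 CPM in YPEG, against 49.2, 44.2, 21.3 and 19.2 CPM in YPD. WT YPD replicates 1 and 2 lay within the YPEG range and replicates 3 and 4 below it, and the log2FC of 0.60 (SE 0.21, adjusted p = 0.0148) became 1.46 without replicates 1 and 2 of WT and 0.02 without replicates 3 and 4. *ATG3*, for the enzyme that passes Atg8 to lipid, and *ATG12* had 0.61 and 0.29 (adjusted p = 0.0025 and 0.0397), while *ATG7*, for the activating enzyme, had -0.49 (adjusted p = 0.016).

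Of the genes for Atg9 vesicles, *ATG2*, for the lipid transfer protein, and *ATG9* rose (log2FC 0.83 and 0.30, adjusted p = 1.18e-07 and 0.00879). *ATG18*, for the phosphoinositide-binding partner of Atg2, and *ATG27* fell (log2FC -0.51 and -0.46, adjusted p = 5.56e-07 and 1.30e-05), and both had every YPEG library below every YPD library. *ATG38*, for a subunit of the PI 3-kinase complex, rose (0.92, adjusted p = 1.52e-05), while *ATG14* had -0.09 (SE 0.18, adjusted p = 0.687) with overlapping libraries. *ATG15*, for the vacuolar lipase that opens autophagic bodies, rose (0.83, adjusted p = 3.77e-07), and *ATG33* rose to 64.5, 51.7, 56.6 and 68.0 CPM in YPEG, against 29.2, 30.3, 28.1 and 19.8 CPM in YPD (1.17, SE 0.14, adjusted p = 6.35e-08). Called in the same direction with all WT libraries and with each WT pair were 13 of the 23 members, namely *ATG2*, *ATG10*, *ATG11*, *ATG15*, *ATG18*, *ATG19*, *ATG27*, *ATG32*, *ATG33*, *ATG34*, *ATG36*, *ATG38* and *ATG39*. Without WT replicates 1 and 2, 18 were higher and 3 lower, and without WT replicates 3 and 4, 12 were higher and 6 lower. Over all genes, 4088 and 3606 were called in these fits, and 4102 with all WT libraries.

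**Figure D2:**
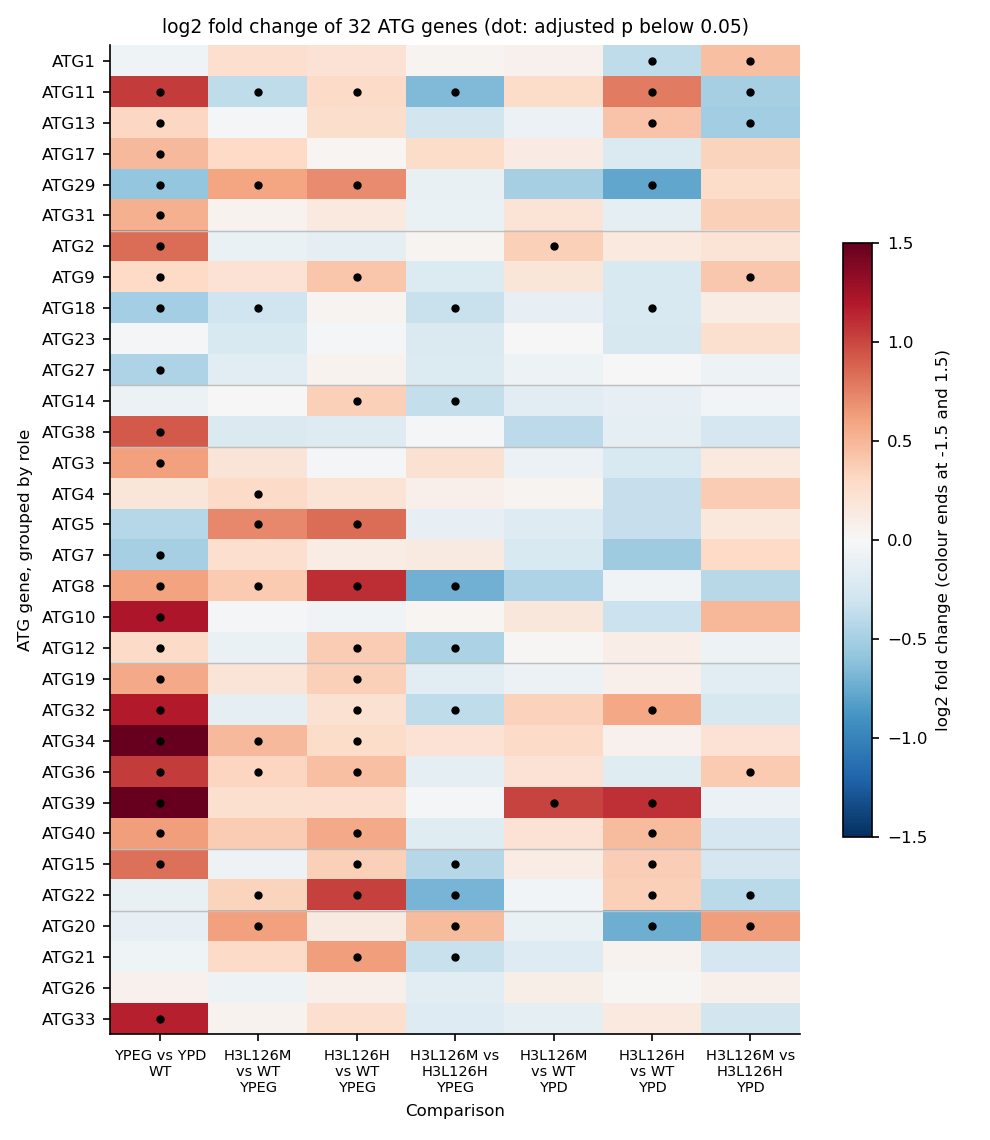
Log2FC of 32 ATG genes (rows, in the same order of roles as above) in 7 comparisons (columns), red for higher and blue for lower in the first-named group, with a dot where the edgeR adjusted p was below 0.05. Colours end at 1.5 in either direction, which *ATG39* exceeds in YPEG against YPD (4.56), and the receptor rows carry 6 dots in that column.

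In YPEG, 15 of 32 members were higher and 0 were lower in H3L126H than in WT, and 17 did not pass the test, where 36.4% of all 6022 genes were called, 18.7% higher and 17.7% lower. The counts at an unadjusted p below 0.05 (17 members) and with DESeq2 (15 higher, 0 lower) were similar. The median log2FC was 0.25 over the members and 0.00 over all genes. All 4 H3L126H libraries were above all 4 WT libraries for 13 members and below for 0, against 17.9% and 16.01% of all genes.

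The largest difference was that of *ATG8*, with 121, 93.3, 109.8 and 114 CPM in H3L126H, against 54.1, 39.7, 44.0 and 65.3 CPM in WT. No H3L126H library came within the WT range, and the log2FC of 1.11 (SE 0.14, edgeR adjusted p = 7.99e-05) corresponds to 2.15-fold. *ATG22*, for a vacuolar membrane protein that exports amino acids, had 91.4, 75.3, 80.2 and 81.6 CPM in H3L126H, against 44.2, 43.3, 33.6 and 39.8 CPM in WT (log2FC 1.03, SE 0.11, adjusted p = 3.79e-05), also without overlap. *ATG5*, the partner of Atg12, had 69.6, 96.8, 73.6 and 72.2 CPM in H3L126H, against 65.3, 52.2, 27.5 and 30.1 CPM in WT. These ranges did not overlap either, but the WT libraries were 2 high and 2 low, and the log2FC of 0.84 (SE 0.22, adjusted p = 0.00851) was 0.41 without WT replicates 3 and 4, where it was no longer called (adjusted p = 0.0647). *ATG29* had 21.3, 17.7, 22.2 and 16.9 CPM in H3L126H, against 16.6, 11.4, 7.55 and 12.5 CPM in WT (log2FC 0.71, SE 0.19, adjusted p = 0.00946), and it too was not called without WT replicates 3 and 4 (adjusted p = 0.0625).

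Other roles showed smaller changes. Receptor genes were higher for 5 of 6, from *ATG40* with a log2FC of 0.57 through *ATG36* (0.45), *ATG19* (0.36) and *ATG34* (0.27) to *ATG32* (0.23, adjusted p = 0.0495), while *ATG39* had 59.7 to 85.3 CPM in H3L126H, against 49.8 to 78.4 CPM in WT, and did not pass. *ATG21*, for a phosphoinositide-binding protein that recruits the Atg8 conjugation machinery in the Cvt pathway, rose by 0.62 (SE 0.11, adjusted p = 0.000875). *ATG9*, for the membrane-spanning protein of those vesicles, had 53.4, 49.6, 52.5 and 52.6 CPM in H3L126H, against 37.0, 38.1, 38.1 and 42.3 CPM in WT (0.42, SE 0.10, adjusted p = 0.00606). *ATG12*, *ATG15*, *ATG14* and *ATG11* had 0.38, 0.36, 0.36 and 0.28, and *ATG1* had 0.22 (SE 0.13, adjusted p = 0.187).

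Genes of whole chromosomes differed in H3L126H, and the members on these chromosomes shared this in YPEG but less so in YPD. The median log2FC of all genes against WT was 0.41 on chromosome II, 0.27 on chromosome III and 0.37 on chromosome XVI in YPEG, and 0.43, 0.21 and 0.42 on these chromosomes in YPD. It was also raised on chromosome V (0.20 in YPEG), which carries no member. Of the 10 tested members on chromosomes II, III and XVI, 9 were higher and 0 lower in YPEG (median 0.50), and of the 22 on other chromosomes 6 were higher and 0 lower (median 0.14). In YPD the counts were 4 higher and 1 lower of 10 (median 0.08), and 3 higher and 3 lower of 22 (median -0.16). The shares of all genes called on each of these sets of chromosomes are not given here, so the counts stand without a background. DNA copy number was not measured, and its part in these values was not tested.

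With the chromosome medians removed as an offset in the fit, 9 members were higher in H3L126H in YPEG and 0 were lower, and 8 of them were among the 15. The share of all genes called with the medians removed is not given here. Counts from this fit, and from the later fits of this kind, therefore stand without a background. *ATG8* kept a log2FC of 0.70 (adjusted p = 0.00282) and *ATG22* one of 0.76 (adjusted p = 0.000485). The receptor genes *ATG19* (0.49), *ATG32* (0.34), *ATG34* (0.40), *ATG36* (0.45) and *ATG40* (0.70), *ATG9* (0.57) and, in addition, *ATG4* (0.31) were called as well, all on chromosomes that were not raised. Most of these chromosomes had medians below 0, so removing the medians raised the values of their genes. The medians were -0.15 on chromosome IV (*ATG9*), -0.11 on IX (*ATG32*) and XIV (*ATG4*), and -0.13 on XV (*ATG19*, *ATG34* and *ATG40*). *ATG11*, *ATG12*, *ATG13* and *ATG14* lay near the median of their chromosomes before its removal, at differences of -0.09, -0.03, -0.11 and -0.05 from it. Called in the same direction with all WT libraries and each WT pair were *ATG8*, *ATG9*, *ATG12*, *ATG19*, *ATG21*, *ATG22* and *ATG36*. Without WT replicates 1 and 2, 13 members were higher and 2 lower, and without WT replicates 3 and 4, 11 were higher and 0 lower. Over all genes, 2512 and 1796 were called in these fits, and 2192 with all WT libraries.

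**Figure D3:**
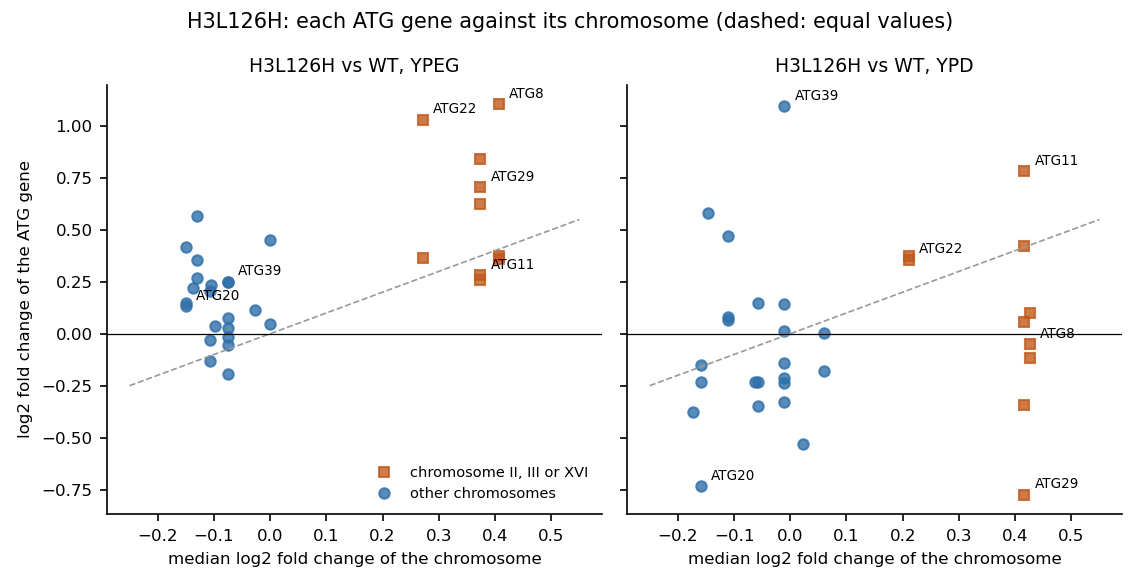
Log2FC of each tested ATG gene in H3L126H against WT (vertical axis) plotted on the median log2FC of all genes of its chromosome (horizontal axis), in YPEG (left) and YPD (right), with squares for chromosomes II, III and XVI and a dashed line where both are equal. In YPEG *ATG8* (1.11 on a median of 0.41) and *ATG22* (1.03 on 0.27) sit far above the line, while in YPD *ATG29* lies at -0.77 on a median of 0.42.

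The comparison of H3L126M with WT in YPEG uses the same 4 WT libraries, so the values of the mutants against WT are not independent. Here 10 of 32 members passed, 8 higher and 2 lower, and 36.2% of all genes did, 17.1% higher and 19% lower. The medians were 0.19 over the members and 0.01 over all genes, and no member reached a 2-fold change. *ATG20*, for a sorting nexin that works in selective autophagy and endosomal sorting, had 131, 115, 109 and 108 CPM in H3L126M, against 90.7, 80.3, 63.9 and 71.7 CPM in WT. All H3L126M libraries were higher, with a log2FC of 0.61 (SE 0.11, edgeR adjusted p = 0.000795). *ATG34* had 41.9, 39.3, 42.5 and 38.9 CPM in H3L126M, against 33.5, 28.1, 28.0 and 27.5 CPM in WT (0.49, SE 0.09, adjusted p = 0.00118), also without overlap.

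*ATG11* was lower, with 70.3, 79.0, 78.5 and 77.5 CPM in H3L126M, against 87.1, 88.4, 120.1 and 104 CPM in WT. The ranges did not overlap (log2FC -0.38, SE 0.10, adjusted p = 0.00961), but most of the difference lay in WT replicates 3 and 4, without which the value was -0.19 (adjusted p = 0.123). *ATG18* was lower by a similar amount, 33.0, 32.6, 33.3 and 33.1 CPM in H3L126M, against 41.3, 41.9, 38.8 and 41.8 CPM in WT (-0.30, SE 0.08, adjusted p = 0.0119). *ATG36* had 0.32 (SE 0.11, adjusted p = 0.0406), and *ATG5*, *ATG29*, *ATG8*, *ATG22* and *ATG4*, for the protease that trims Atg8, had 0.72, 0.59, 0.39, 0.34 and 0.29.

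*ATG8* in this comparison had 73.0, 66.8, 59.8 and 64.8 CPM in H3L126M, against the 39.7 to 65.3 CPM of WT, an overlap of ranges with an adjusted p of 0.0388. Not past the threshold were *ATG1* (0.26, SE 0.13), *ATG9* (0.21, SE 0.10), *ATG19* (0.20, SE 0.10), *ATG14* (0.01, SE 0.13) and *ATG32* (-0.15, SE 0.09). Called in the same direction with all WT libraries and each pair were *ATG18*, *ATG20* and *ATG34*, and without WT replicates 1 and 2 the split was 7 higher and 6 lower. Without WT replicates 3 and 4, 5 were higher and 1 was lower. Over all genes, 2719 were called without WT replicates 1 and 2, 1490 without replicates 3 and 4, and 2178 with all WT libraries.

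In the direct comparison of the mutants, the WT libraries enter only the filter, the scaling and the estimate of spread. The split between pairs of H3L126M libraries remains in this comparison. The chromosome medians removed from it are those of each mutant against WT, so those values do depend on the WT libraries. In YPEG, 1 of 32 members was higher and 9 were lower in H3L126M than in H3L126H, while 40.6% of all genes were called, 19.4% higher and 21.2% lower. *ATG8* had 73.0, 66.8, 59.8 and 64.8 CPM in H3L126M, against 121, 93.3, 109.8 and 114 CPM in H3L126H, a log2FC of -0.72 (SE 0.13, edgeR adjusted p = 0.000802) without overlap. *ATG22* (-0.69, SE 0.11, adjusted p = 0.000204) and *ATG11* (-0.66, SE 0.10, adjusted p = 0.00015) were lower without overlap as well. *ATG20* was the member that was higher in H3L126M (0.48, SE 0.11, adjusted p = 0.00297), with 108 to 131 CPM in the H3L126M libraries, against 78.6 to 96.5 CPM in the H3L126H libraries.

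*ATG32* had 42.9, 36.4, 39.4 and 43.2 CPM in H3L126M, against 51.6, 50.8, 55.7 and 55.3 CPM in H3L126H (-0.38, SE 0.09, adjusted p = 0.00307). *ATG14* was lower (-0.35, SE 0.13, adjusted p = 0.0417), as were *ATG12* (-0.47), *ATG15* (-0.43), *ATG21* (-0.34) and *ATG18* (-0.34). *ATG9* (-0.20, SE 0.10, adjusted p = 0.124), *ATG19* (-0.16, SE 0.10, adjusted p = 0.223) and *ATG1* (0.04, SE 0.13, adjusted p = 0.844) did not pass. With the chromosome medians removed, 1 member was higher and 5 were lower, and *ATG18*, *ATG20*, *ATG22* and *ATG32* were called both ways. *ATG8* (-0.31, adjusted p = 0.0927), *ATG11* (-0.27, adjusted p = 0.0566), *ATG12*, *ATG14*, *ATG15* and *ATG21* were then not called, and *ATG14*, on chromosome II, had 0.05 (adjusted p = 0.802).

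**Figure D4:**
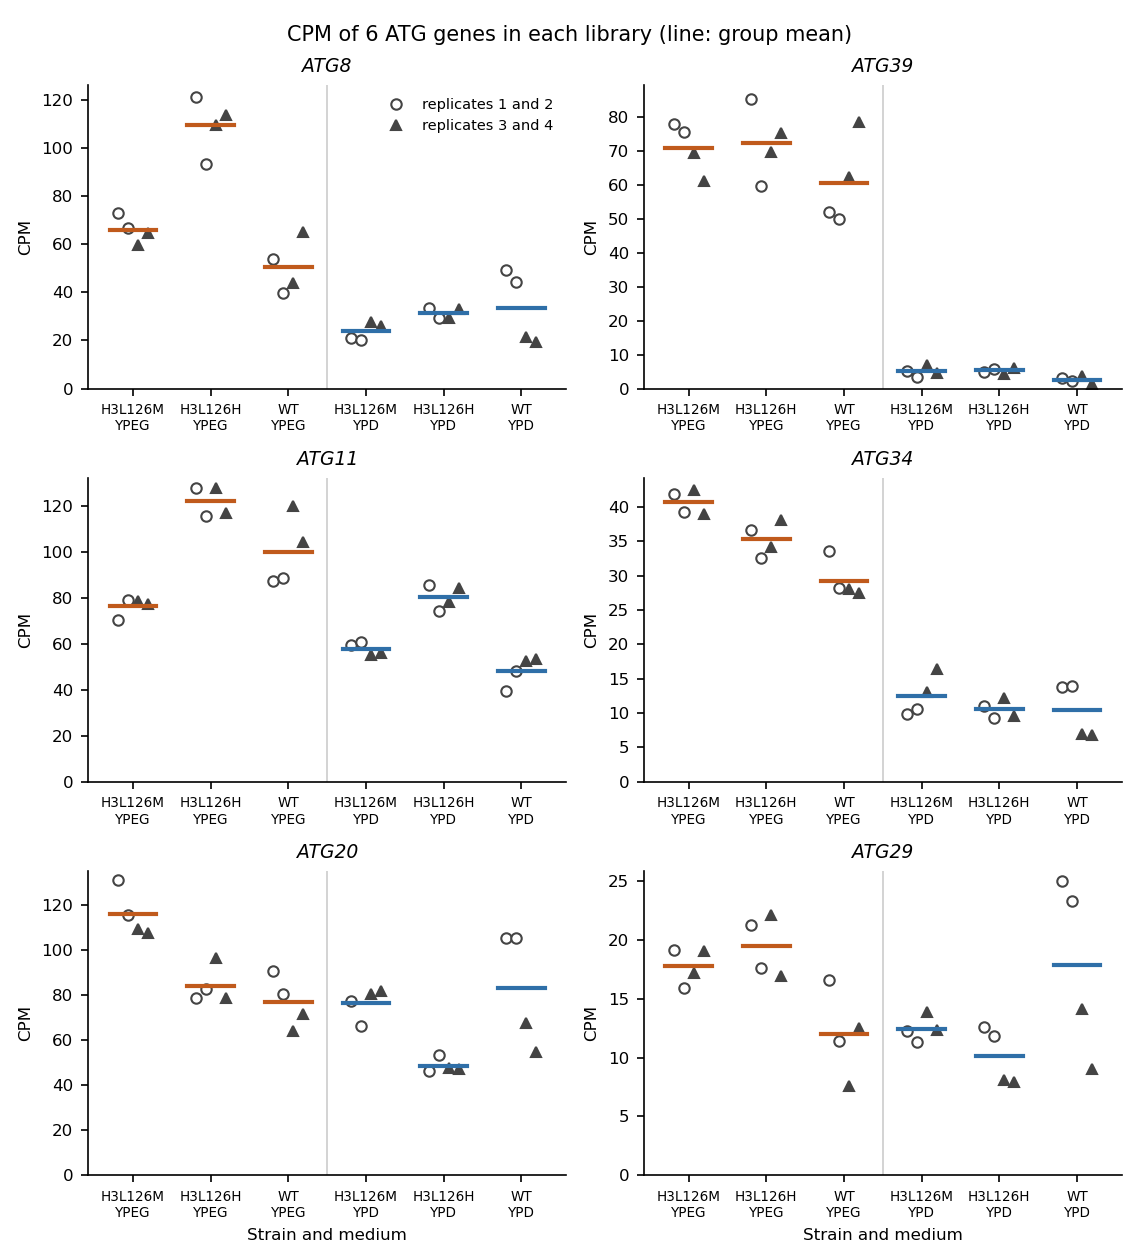
CPM in each of the 4 libraries for 6 ATG genes in the 6 groups (H3L126M, H3L126H and WT in YPEG, then in YPD), open circles for replicates 1 and 2, triangles for replicates 3 and 4 and a line at the group mean. *ATG8* reaches 93.3 to 121 CPM in H3L126H in YPEG, and in YPD the WT libraries of *ATG8*, *ATG20*, *ATG29* and *ATG34* separate into replicates 1 and 2 above replicates 3 and 4.

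In YPD, few members differed between H3L126M and WT. Only *ATG39* and *ATG2* passed, both higher, where 14.6% of all 5976 genes did, 7.83% higher and 6.74% lower. They were named after their values were seen, since their libraries overlap. *ATG39* had 5.28, 3.31, 6.99 and 4.68 CPM in H3L126M, against 3.01, 2.22, 3.64 and 1.39 CPM in WT (log2FC 1.01, SE 0.29, edgeR adjusted p = 0.0305), and *ATG2* had 64.4, 53.5, 65.7 and 64.3 CPM, against 55.5, 50.7, 48.6 and 41.6 CPM in WT (0.36, SE 0.10, adjusted p = 0.0285). In each gene the lowest H3L126M library lay below the highest WT library. At an unadjusted p below 0.05, 5 members passed, and DESeq2 called 2. With the replicate number as a block, or with only the compared libraries in the fit, 0 members passed. *ATG11* had 0.28 (SE 0.09, adjusted p = 0.0553), *ATG32* 0.34 (SE 0.12), *ATG9* 0.18 (SE 0.10), *ATG1* 0.07 (SE 0.12), *ATG19* -0.09 (SE 0.15), *ATG14* -0.16 (SE 0.22) and *ATG8* -0.47 (SE 0.26).

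H3L126H differed from WT in YPD at 11 members, 7 higher and 4 lower, with 44.6% of all genes called, 24.5% higher and 20.1% lower. *ATG39* had 4.99, 5.81, 4.42 and 6.08 CPM in H3L126H, against 3.01, 2.22, 3.64 and 1.39 CPM in WT. The groups were apart by less than 1 CPM, and the log2FC was 1.10 (SE 0.29, edgeR adjusted p = 0.00765). *ATG11* had 85.4, 74.1, 78.3 and 84.1 CPM in H3L126H, against 39.3, 48.0, 52.5 and 53.6 CPM in WT, without overlap (0.78, SE 0.09, adjusted p = 2.51e-05), and it kept 0.37 (adjusted p = 0.00782) with the chromosome medians removed. *ATG32* had 27.5, 23.7, 31.0 and 32.6 CPM in H3L126H, against 16.8, 19.5, 23.2 and 19.8 CPM in WT (0.58, SE 0.12, adjusted p = 0.00158), with every H3L126H library higher.

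*ATG20* was lower, with 46.1, 53.5, 47.7 and 46.9 CPM in H3L126H, against 105, 105, 67.3 and 54.8 CPM in WT. The WT libraries spanned a wide range, yet all lay above H3L126H (log2FC -0.73, SE 0.18, adjusted p = 0.00553). *ATG29* (-0.77, SE 0.28, adjusted p = 0.0366), *ATG1* (-0.38, SE 0.12, adjusted p = 0.0211) and *ATG18* (-0.23, SE 0.07, adjusted p = 0.0159) were lower as well. Higher were also *ATG40* (0.47), *ATG13* (0.42), *ATG15* (0.37) and *ATG22* (0.36). *ATG13* had 80.7 to 82.3 CPM in H3L126H, against 61.9 to 63.5 CPM in WT, and its change was within 0.01 of the median of chromosome XVI. With the chromosome medians removed, *ATG1*, *ATG13*, *ATG15*, *ATG18* and *ATG22* were not called, *ATG5* (-0.76) and *ATG21* (-0.36) were called in addition, and the split was 4 higher and 4 lower. *ATG9* (-0.23, SE 0.10), *ATG14* (-0.12, SE 0.22), *ATG8* (-0.05, SE 0.26) and *ATG19* (0.08, SE 0.15) did not pass.

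Between the mutants in YPD, 4 members were higher and 3 lower in H3L126M than in H3L126H, with 35.7% of all genes called, 16.2% higher and 19.4% lower. *ATG20* had 77.3, 66.0, 80.5 and 81.9 CPM in H3L126M, against 46.1, 53.5, 47.7 and 46.9 CPM in H3L126H (log2FC 0.63, SE 0.18, edgeR adjusted p = 0.0161), and *ATG1* had 37.3, 36.6, 36.5 and 46.1 CPM, against 31.1, 28.0, 26.4 and 27.5 CPM (0.45, SE 0.12, adjusted p = 0.0112). *ATG20* was thus higher in H3L126M than in H3L126H in both media, without overlap in either. *ATG9* (0.41, adjusted p = 0.00591) and *ATG36* (0.39, adjusted p = 0.0272) were higher, and *ATG13* (-0.52, adjusted p = 9.23e-05), *ATG11* (-0.50, adjusted p = 0.000828) and *ATG22* (-0.40, adjusted p = 0.00938) were lower. *ATG8* (-0.42, SE 0.26), *ATG32* (-0.24, SE 0.12), *ATG19* (-0.17, SE 0.15) and *ATG14* (-0.04, SE 0.22) did not pass. The 3 lower members lie on chromosomes III and XVI, and with the chromosome medians removed 1 member was higher (*ATG36*, 0.42) and 1 lower (*ATG32*, -0.39).

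Results against WT in YPD changed with the WT libraries that were compared. Without WT replicates 1 and 2, H3L126M had 5 members higher and 0 lower, and without WT replicates 3 and 4 it had 3 higher and 9 lower. For H3L126H these counts were 12 higher and 1 lower, and 4 higher and 13 lower. Over all genes, 1635 and 2068 were called for H3L126M in these fits, and 871 with all WT libraries. For H3L126H they were 2625 and 3324, and 2665 with all WT libraries. *ATG19* and *ATG20* in H3L126M, and *ATG8* and *ATG19* in H3L126H, were called in opposite directions. *ATG8* in H3L126H had a log2FC of 0.68 (adjusted p = 0.0016) without WT replicates 1 and 2 and of -0.54 (adjusted p = 0.00212) without replicates 3 and 4. Called in the same direction in all 3 ways were *ATG39* in H3L126M, and *ATG11*, *ATG13*, *ATG20*, *ATG32* and *ATG39* in H3L126H.

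**Figure D5:**
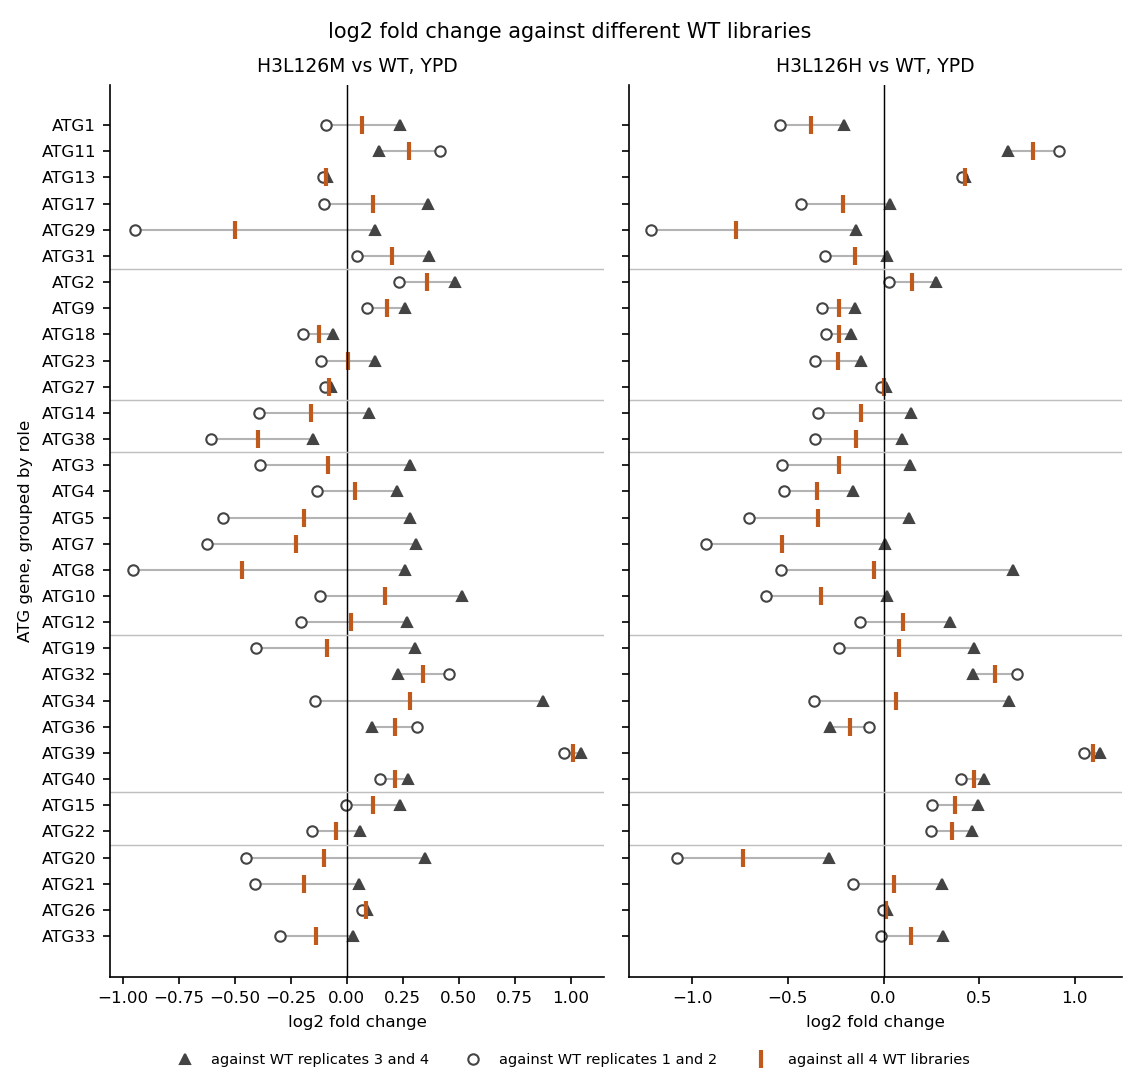
Log2FC of 32 ATG genes in YPD for H3L126M (left) and H3L126H (right) against all 4 WT libraries (orange bar), against WT replicates 3 and 4 (triangle) and against WT replicates 1 and 2 (open circle). For *ATG8* in H3L126H the triangle is at 0.68 and the circle at -0.54, while for *ATG39* all 3 marks lie close together in both panels.

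The interaction asks whether the difference between a mutant and WT changed with the medium, and is the log2FC in YPEG minus that in YPD. For H3L126H it passed at 12 members, 11 positive and 1 negative, with 19.4% of all 6082 genes called, 10.1% positive and 9.27% negative. The median was 0.32 over the members and 0.02 over all genes. The largest were *ATG29* (1.52, SE 0.34, edgeR adjusted p = 0.0045), *ATG5* (1.23, SE 0.32, adjusted p = 0.0111), *ATG8* (1.20, SE 0.30, adjusted p = 0.00785) and *ATG20* (0.91, SE 0.22, adjusted p = 0.00596). *ATG22*, *ATG9*, *ATG36*, *ATG1*, *ATG21*, *ATG4* and *ATG18* followed with 0.72 to 0.32, and *ATG11* was negative (-0.45, SE 0.14, adjusted p = 0.0241). *ATG14*, *ATG19* and *ATG32* had 0.53, 0.32 and -0.30 and did not pass.

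For H3L126M the interaction passed at 8 members, 5 positive and 3 negative, with 24.7% of all genes called, 11.1% positive and 13.6% negative. *ATG29* (1.09, SE 0.34, adjusted p = 0.023), *ATG5* (0.91, SE 0.32, adjusted p = 0.0407), *ATG8* (0.86, SE 0.30, adjusted p = 0.0383), *ATG20* (0.72, SE 0.21, adjusted p = 0.018) and *ATG21* (0.49, SE 0.17, adjusted p = 0.0398) were positive. *ATG11* (-0.65, SE 0.14, adjusted p = 0.00192), *ATG32* (-0.48, SE 0.15, adjusted p = 0.0186) and *ATG2* (-0.44, SE 0.14, adjusted p = 0.0258) were negative, while *ATG19*, *ATG1*, *ATG14* and *ATG9* had 0.29, 0.20, 0.18 and 0.045 and did not pass. Both interactions share the 8 WT libraries. The split between WT pairs moved them: the interaction of *ATG8* was 0.31 in H3L126H and 0.03 in H3L126M without WT replicates 1 and 2, and neither was then called, against 1.79 and 1.48 without replicates 3 and 4. Called positive and negative for H3L126H were 6 and 4 members without WT replicates 1 and 2, and 17 and 2 without replicates 3 and 4, and for H3L126M 2 and 4, and 10 and 2. Over all genes, 1452 and 1978 were called for H3L126H in these fits, and 1792 and 2038 for H3L126M. The interactions of *ATG5*, *ATG11* and *ATG20* in H3L126M, and of *ATG5*, *ATG9*, *ATG11*, *ATG20*, *ATG22*, *ATG29* and *ATG36* in H3L126H, were called in the same direction in all 3 ways.

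Genes that work with the members outside the numbered set were grouped by function. The list of Cvt cargo and vacuolar hydrolases holds 11 genes, the proteins that autophagy delivers or that digest what it delivers. In YPEG, 9 of 11 were higher and 0 lower in H3L126M than in WT, where 17.1% of all genes were higher and 19% lower. The median log2FC was 0.44 over the list and 0.01 over all genes. The list was led by *PRB1*, the vacuolar proteinase B (1.003, SE 0.17, edgeR adjusted p = 0.000478), *CPS1*, carboxypeptidase S (0.56, SE 0.11) and *APE4*, a Cvt cargo aminopeptidase (0.54, SE 0.12). Against WT replicates 3 and 4 alone the count was 9 and 0, and against replicates 1 and 2 alone it was 6 and 0. In H3L126H in YPEG, 4 were higher and 0 lower (median 0.17), with 18.7% of all genes higher and 17.7% lower. The 4 were led by *PEP4*, proteinase A (0.97), *PRB1* (0.63) and *APE3* (0.63). *PEP4*, *APE3* and *PRB1* lie on chromosomes XVI, II and V, and 2 of the list were higher with the chromosome medians removed. In WT, 5 of the list were higher in YPEG than in YPD, led by *AMS1*, alpha-mannosidase (2.55), *APE1* (0.99) and *PEP4* (0.92), and 3 were lower, *PHO8*, the vacuolar alkaline phosphatase (-1.51), *APE3* (-0.62) and *APE4* (-0.29). *PHO8* was also lower than in WT in YPD in H3L126M (-1.16, SE 0.05) and in H3L126H (-1.18, SE 0.05). There the list counted 1 higher and 1 lower in H3L126M, with 14.6% of all genes called. For H3L126H it counted 4 higher and 2 lower, with 44.6% of all genes called.

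In the medium comparison 67.4% of all genes were called, which is the background for the hydrolase list above and for the next lists. Of 16 genes for the PI 3-kinase, tethering and fusion, 3 were higher and 7 lower in WT in YPEG than in YPD (median -0.17), led by *DNM1*, the dynamin of mitochondrial and peroxisomal fission (1.45), and by *VAC8*, a vacuolar membrane protein (-0.58). In YPEG, 2 were higher and 1 lower in H3L126M and 4 higher and 1 lower in H3L126H than in WT, where *VPS15* (0.55) and *VPS30* (0.53), both of the PI 3-kinase complex, led on chromosomes II and XVI. In YPD, 1 was higher and 1 lower in H3L126M, and 6 were higher and 2 lower in H3L126H, led by *CCZ1*, part of the factor that activates the fusion GTPase Ypt7, on chromosome II (0.85). The splits of this list in H3L126H were 2 and 1 in YPEG and 3 and 2 in YPD with the chromosome medians removed. Of 19 genes for TORC1, the kinase complex that restrains Atg1 when nutrients are plentiful, and its regulators, 7 were higher and 4 lower in WT in YPEG than in YPD (median 0.08). In YPEG, 1 was higher and 5 lower in H3L126M (median -0.16), among them *MEH1* of the vacuolar EGO complex (-0.68), and 4 were higher and 2 lower in H3L126H (median -0.09). The 4 higher genes lie on chromosomes II, V and XVI, and the split was 1 and 0 with the chromosome medians removed. Splits of this list in YPEG moved with the WT pair. They were 1 and 8 in H3L126M (median -0.21) and 3 and 4 in H3L126H without WT replicates 1 and 2. Without replicates 3 and 4 they were 0 and 3 in H3L126M (median -0.04) and 4 and 0 in H3L126H. In YPD, 0 were higher and 1 lower in H3L126M, and 8 were higher and 2 lower in H3L126H, or 6 and 2 with the medians removed.

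Of 16 known regulators of ATG transcription or mRNA, 5 were higher and 3 lower in WT in YPEG than in YPD (median 0.06), led by the GATA activator *GAT1* (1.07) and by *DHH1*, an RNA helicase of mRNA decay (-0.75). In YPEG, *RPH1*, a histone demethylase known to repress ATG genes in glucose medium, was lower in H3L126M than in WT (-0.42) and higher in H3L126H (0.37). It lies on chromosome V, and with the chromosome medians removed its value in H3L126H was 0.17 (adjusted p = 0.241). In YPD it was higher in H3L126H by 0.82, and by 0.60 (adjusted p = 0.00231) with the medians removed. *UME6*, the repressor that binds upstream of *ATG8*, was lower in H3L126H than in WT in both media (-0.49 in YPEG and -0.36 in YPD). It lies on chromosome IV, whose median in H3L126H was -0.15 in YPEG and -0.16 in YPD. *GCN4*, the activator of amino acid synthesis genes, was higher in both mutants in YPEG (0.52 in H3L126M and 0.59 in H3L126H). *GCN4* lies on chromosome V, like *RPH1*, and was not called in H3L126H with the medians removed (0.39, adjusted p = 0.129). In all, 2 of the list were higher and 2 lower in H3L126M, and 3 higher and 2 lower in H3L126H, in YPEG, where the split in H3L126H was 2 and 1 with the chromosome medians removed. The splits in YPEG were 3 and 6 in H3L126M and 2 and 5 in H3L126H without WT replicates 1 and 2. They were 1 and 1, and 4 and 0, without replicates 3 and 4. Over all genes, 2719 and 1490 were called for H3L126M in these fits, and 2512 and 1796 for H3L126H. In YPD, 1 was higher and 1 lower in H3L126M, and 3 were higher and 5 lower in H3L126H, or 5 and 5 with the medians removed. With all 4 WT libraries, 36.2% and 36.4% of all genes were called in YPEG, and the shares called in the last 3 lists lie below these. Of all genes in YPD, 14.6% were called in H3L126M and 44.6% in H3L126H.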

How the data were processed

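RNA from whole cells was made into stranded poly-A libraries. Per the study's methods, the authors aligned reads to the R64-1-1 assembly (sacCer3) with HISAT2, counted them per open reading frame with featureCounts and deposited the raw counts. Tool versions are not given in the sources used here. The deposited counts normalized with DESeq2 size factors were not used.

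The counts were fitted with the quasi-likelihood test of edgeR 4.0.16 (R 4.3.3) on all genes after TMM scaling, with a minimum count of 10 in filterByExpr and Benjamini-Hochberg adjustment over all genes tested. The 12 libraries of a medium were fitted together, and all 24 for the comparison of media and the interactions. Genes with an adjusted p below 0.05 are termed called. The SE is the log2 fold change divided by the square root of F. Depth was 8.57e6 to 15.6e6 assigned counts per library.

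Alternatives were DESeq2 1.42.0, edgeR scaled by its size factors, all genes unfiltered, genes averaging 100 counts or more, an adjusted p below 0.01, the replicate number as a block, chromosome medians removed, other sets of libraries and leaving out each library. Leaving out WT replicates 1 and 2 or 3 and 4 was added after seeing the data. Members and lists were chosen with earlier results of these data known. In each comparison the text names called members of at least 2-fold without overlap between groups (or the 4 largest without overlap), and *ATG1*, *ATG8*, *ATG9*, *ATG11*, *ATG14*, *ATG19* and *ATG32*. Other called members are named to complete the counts. Coordinates, names and the 300 bases before each start codon are from RefSeq R64, in which all 33 members have an entry. A RefSeq promoter table was not used here.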

Additional observations from a re-analysis of the deposited data

Results flagged for a closer look

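Of 192 groups of 4 libraries (32 members in 6 groups), 10 had a single library far from the other 3 by Dixon's criterion, and chance gives about 1 in 20 groups. In H3L126M these were *ATG1* (46.1 CPM in YPD replicate 4, highest), *ATG2* (53.5 CPM in YPD replicate 2, lowest), *ATG18* (50.8 CPM in YPD replicate 4, lowest), *ATG11* (70.3 CPM in YPEG replicate 1, lowest) and *ATG40* (28.0 CPM in YPEG replicate 1, highest). In H3L126H they were *ATG5* (96.8 CPM in YPEG replicate 2, highest), *ATG26* (90.0 CPM in YPEG replicate 2, lowest) and *ATG18* (44.4 CPM in YPD replicate 2, lowest). In WT they were *ATG4* (35.5 CPM) and *ATG34* (33.5 CPM), both highest in YPEG replicate 1.

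The difference between a mutant and WT changed with the medium at 20 tests of the interaction. In H3L126M these were *ATG29* (1.09), *ATG5* (0.91), *ATG8* (0.86), *ATG20* (0.72), *ATG21* (0.49), *ATG2* (-0.44), *ATG32* (-0.48) and *ATG11* (-0.65), on the log2 scale. In H3L126H they were *ATG29* (1.52), *ATG5* (1.23), *ATG8* (1.20), *ATG20* (0.91), *ATG22* (0.72), *ATG9* (0.70), *ATG36* (0.68), *ATG1* (0.65), *ATG21* (0.61), *ATG4* (0.60), *ATG18* (0.32) and *ATG11* (-0.45). Called in the same direction with all WT libraries and with each WT pair were 3 of the 8 in H3L126M and 7 of the 12 in H3L126H, as named above. Those of *ATG8* were among the others and were not called without WT replicates 1 and 2 (0.03 in H3L126M and 0.31 in H3L126H).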

How the results depend on the processing

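The counts of called members moved with the threshold, the libraries that share the estimate of spread, the chromosome medians and the WT pair. At an adjusted p below 0.01 the counts were 0 for H3L126M and 5 for H3L126H against WT in YPD, 4 between the mutants in YPD, 3 and 8 for H3L126M and H3L126H against WT in YPEG, and 1 and 6 for their interactions. With only the libraries compared in the fit, they were 0 for H3L126M against WT in YPD, 14 between the mutants in YPD, 6 for H3L126M against WT in YPEG and 2 for the interaction of H3L126M. The cause was not tested. With the chromosome medians removed, 2 members were called between the mutants in YPD, 6 between them in YPEG and 9 for H3L126H against WT in YPEG, and the split for H3L126H against WT in YPD was 4 higher and 4 lower, against 7 and 4. *ATG11* (-0.091) and *ATG14* (-0.045) in H3L126H against WT and *ATG14* between the mutants (0.051), all in YPEG, changed sign there and were not called. Shares of all genes called with the medians removed are not given here.

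Without WT replicates 1 and 2, 5 members were called for H3L126M against WT in YPD, with *ATG19* at 0.30, and *ATG8* in H3L126H was at 0.68. Without WT replicates 3 and 4 the counts were 12 for H3L126M and 17 for H3L126H in YPD, 6 for H3L126M in YPEG and 19 for the interaction of H3L126H, and *ATG19* in H3L126H in YPD was at -0.23.

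The numbers were not taken to pair the samples, since in no comparison did every same-numbered pair have a correlation over 0.1 (28 correlations, -0.49 to 0.36). All 8 correlations of H3L126H with WT were positive (0.042 to 0.353). With the replicate number as a block, the count for H3L126M against WT in YPD was 0 in place of 2 and that between the mutants in YPEG 9 in place of 10. The block left the other 7 counts as they were.

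Leaving out 1 library at a time gave 0 to 6 called members for H3L126M and 8 to 16 for H3L126H against WT in YPD, 6 to 10 between the mutants in YPD, 4 to 11 for H3L126M and 9 to 15 for H3L126H against WT in YPEG, 8 to 11 between the mutants in YPEG, 18 to 24 for the media in WT, and 3 to 10 and 8 to 14 for the interactions of H3L126M and H3L126H. For H3L126M in YPD, the count moved by over 1.5 times without WT replicate 2 (1) or 4 (6) or H3L126M replicate 1 (0), 3 (0) or 4 (1). For H3L126M in YPEG it did so without WT replicate 2 (6) or 3 (4) or H3L126M replicate 1 (4), and for H3L126H in YPEG without H3L126H replicate 1 (9). For the interaction of H3L126M it did so without WT YPD replicate 1 or 2 (3 each), WT YPEG replicate 3 (3) or H3L126M replicate 1 in YPD or YPEG (5 each). DESeq2, its size factors, unfiltered genes, genes averaging 100 counts or more and all 24 libraries in one fit kept every count within 1.5 times.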

Other observations

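RefSeq gives ATG symbols to 4 further genes that the count table lists under other names. *ICY2* (*ATG41*) is known to act in autophagosome formation. In YPEG it averaged 22.3 ± 4.51 CPM in H3L126M, 46.0 ± 6.91 CPM in H3L126H and 36.6 ± 3.55 CPM in WT (SD, n = 4 each), and in YPD 50.6 ± 23.2 CPM in H3L126M, 24.6 ± 1.73 CPM in H3L126H and 110.4 ± 58.9 CPM in WT. It was lower in YPEG than in YPD in WT (log2 fold change -1.59, SE 0.30, edgeR adjusted p = 5.94e-05), lower in H3L126H than in WT in YPD (-2.12, SE 0.39, adjusted p = 0.000823) and lower in H3L126M than in H3L126H in YPEG (-1.02, SE 0.14, adjusted p = 8.03e-05). *ICY2* was also lower in H3L126M than in WT in YPEG (-0.70, SE 0.15, adjusted p = 0.00219). Its interaction in H3L126H was 2.49 (SE 0.43, adjusted p = 0.000548), and the gene lies on chromosome XVI. The WT YPD libraries spread widely, and the change in H3L126H was -1.24 without WT replicates 1 and 2 and -2.67 without replicates 3 and 4, called both ways. The change with medium in WT was -0.61 without WT replicates 1 and 2 and was then not called (adjusted p = 0.0951).

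YIL024C (*ATG45*) averaged 16.4 ± 0.94 CPM in H3L126M, 30.4 ± 4.95 CPM in H3L126H and 22.4 ± 0.40 CPM in WT in YPEG, and 6.07 ± 0.65, 11.9 ± 1.49 and 5.90 ± 1.21 CPM in these strains in YPD. It was higher in YPEG than in YPD in WT (1.92, SE 0.14, adjusted p = 1.90e-11) and higher in H3L126H than in WT in both media (0.43 in YPEG and 1.06 in YPD). In H3L126M it was lower than in WT in YPEG (-0.43, SE 0.12, edgeR adjusted p = 0.0107). It was lower in H3L126M than in H3L126H in both media (-0.87 in YPEG and -0.99 in YPD). YBR139W (*ATG42*), for a vacuolar carboxypeptidase, was higher in H3L126H than in WT in both media (0.67 in YPEG and 0.66 in YPD) and lies on chromosome II. YIL156W-B (*ATG44*) was higher in YPEG than in YPD in WT (0.54, SE 0.15, adjusted p = 0.00219), and its differences between strains lay between -0.11 and 0.01 on the log2 scale.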
